A study of Homo sapiens with 12 samples.

Results

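The ADAM and ADAMTS proteases examined here are the protein-coding autosomal genes of the RefSeq table (GRCh38.p14) whose symbol is ADAM or ADAMTS and a number, together with the ADAMTSL genes and ADAMDEC1. The rule found 45 genes of 19126 protein-coding autosomal genes: 20 ADAM genes, ADAMDEC1, 19 ADAMTS genes and 5 ADAMTSL genes. Chromatin accessibility was measured by ATAC-seq, in which a transposase cuts open DNA, in HT1080 cells, an established human fibrosarcoma line. The cells had spent 48 h in rat tail collagen I, and the 12 libraries fall into 3 groups of 4 by the amount of collagen. The group called high had 1.7 mg/mL, the group called medium 1.0 mg/mL, and the group called low 0.3 mg/mL. Every library, at each concentration, came from cells given GM6001, an inhibitor of metalloproteinases, at 20 µM. Its effect on the ADAM and ADAMTS proteases themselves was not measured. Gels were dissolved with collagenase before the cells were frozen. The values analysed come from 1 peak list of 188019 summits in 91278 intervals, pooled over the series, without a value per library or per concentration. The 3 concentrations could therefore not be compared for any gene, no value below has a replicate error, and no test was run. The depth of each library is not analysed here.

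ADAM proteins are membrane-anchored relatives of snake venom metalloproteases. The catalytically active ones cut the ectodomains of growth factors, cytokines, receptors and adhesion molecules at the cell surface, a process called shedding, and ADAM10 and ADAM17 are the best known sheddases. ADAMTS proteins are secreted, carry thrombospondin type 1 repeats, and process matrix molecules such as aggrecan, versican, procollagens and fibrillin-bound microfibrils. ADAMTSL proteins have the same ancillary domains without the protease. Both families are of interest in a fibrosarcoma line held in collagen because they act on the matrix and on the surface of the cells that cross it.

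The promoters of 9 genes show the sequence under the strongest start-site signals and at starts with no summit in the list. A summit is the highest point of an open region in the list, and a start-site summit is one within 1000 bp of the annotated transcription start. Among genes in the promoter table, the 6 with the highest fragment pileup at the start were ADAM10, ADAM17, ADAM22, ADAM15, ADAM19 and ADAMTS6, and all 6 summits fell inside the 250 bases printed. ADAM12, ADAMTSL1 and ADAM29 had no start-site summit. Each sequence is the 250 bases before the start, 5′ to 3′ on the gene's strand, from RefSeq (GRCh38.p14). Capitals mark matches, on either strand, to the motifs of SP/KLF factors, TEAD factors, AP-1 and the TATA box. The SP/KLF motif searched, also called the GC box, was GGGCGG. The TEAD motif was GGAATG. The AP-1 motif was TGANTCA. The TATA motif was TATAAA. The matches shown do not overlap one another.
ADAM10, chr15:58749708-58749957, minus strand: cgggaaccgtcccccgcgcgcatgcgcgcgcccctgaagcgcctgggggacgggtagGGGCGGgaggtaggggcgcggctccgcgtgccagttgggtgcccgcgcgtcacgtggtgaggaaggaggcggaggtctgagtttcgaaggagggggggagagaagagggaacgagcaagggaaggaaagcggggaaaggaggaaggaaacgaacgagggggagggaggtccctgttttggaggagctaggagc
ADAM17, chr2:9555831-9556080, minus strand: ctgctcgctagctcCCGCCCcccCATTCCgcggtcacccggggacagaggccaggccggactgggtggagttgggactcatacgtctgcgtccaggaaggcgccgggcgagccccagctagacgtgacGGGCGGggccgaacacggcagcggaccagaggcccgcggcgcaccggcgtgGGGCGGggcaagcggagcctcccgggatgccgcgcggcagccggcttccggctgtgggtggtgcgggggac
ADAM22, chr7:87934001-87934250, plus strand: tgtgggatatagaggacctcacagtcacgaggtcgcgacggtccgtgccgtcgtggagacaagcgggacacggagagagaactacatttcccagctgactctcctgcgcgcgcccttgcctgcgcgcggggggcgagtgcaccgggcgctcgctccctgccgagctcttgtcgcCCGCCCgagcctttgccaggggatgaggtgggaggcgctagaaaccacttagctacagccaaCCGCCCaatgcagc
ADAM15, chr1:155051066-155051315, plus strand: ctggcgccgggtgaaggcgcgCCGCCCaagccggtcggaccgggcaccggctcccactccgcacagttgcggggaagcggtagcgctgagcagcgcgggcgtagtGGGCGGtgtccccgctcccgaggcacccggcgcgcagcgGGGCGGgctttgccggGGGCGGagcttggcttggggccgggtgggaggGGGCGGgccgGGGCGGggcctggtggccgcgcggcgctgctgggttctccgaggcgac
ADAM19, chr5:157575776-157576025, minus strand: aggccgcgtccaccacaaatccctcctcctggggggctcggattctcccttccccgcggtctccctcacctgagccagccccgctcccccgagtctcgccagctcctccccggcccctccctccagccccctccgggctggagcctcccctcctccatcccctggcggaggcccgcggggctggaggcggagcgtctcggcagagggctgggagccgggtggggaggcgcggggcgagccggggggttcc
ADAMTS6, chr5:65481921-65482170, minus strand: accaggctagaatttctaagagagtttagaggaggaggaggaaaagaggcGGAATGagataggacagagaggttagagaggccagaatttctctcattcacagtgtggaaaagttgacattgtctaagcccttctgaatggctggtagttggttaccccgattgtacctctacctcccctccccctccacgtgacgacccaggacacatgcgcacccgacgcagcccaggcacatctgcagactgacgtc
ADAM12, chr10:126388478-126388727, minus strand: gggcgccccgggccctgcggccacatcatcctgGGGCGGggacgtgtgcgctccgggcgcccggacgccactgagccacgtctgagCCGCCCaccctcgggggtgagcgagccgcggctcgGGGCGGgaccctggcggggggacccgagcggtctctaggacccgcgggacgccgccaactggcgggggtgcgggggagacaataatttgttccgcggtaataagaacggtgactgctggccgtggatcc
ADAMTSL1, chr9:18473903-18474152, plus strand: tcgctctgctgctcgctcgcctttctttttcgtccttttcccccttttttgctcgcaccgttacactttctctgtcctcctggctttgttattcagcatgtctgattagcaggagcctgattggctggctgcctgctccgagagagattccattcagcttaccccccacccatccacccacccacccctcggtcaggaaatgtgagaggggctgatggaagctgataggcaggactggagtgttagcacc
ADAM29, chr4:174918108-174918357, plus strand: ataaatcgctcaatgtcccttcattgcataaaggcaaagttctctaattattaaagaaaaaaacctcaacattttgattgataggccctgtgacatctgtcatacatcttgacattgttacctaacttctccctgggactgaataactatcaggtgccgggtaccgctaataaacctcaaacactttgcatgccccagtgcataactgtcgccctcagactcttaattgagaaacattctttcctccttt

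The printed promoters with a start-site summit ranged from 52.4% G and C with 8 CpG dinucleotides (ADAMTS6) to 79.6% with 36 (ADAM15). The ADAM12 promoter, with no start-site summit, had 73.6% G and C, 31 CpG and 3 SP/KLF matches, so it resembled the ADAM17 promoter (75.6%, 31 CpG, 3 matches) in these counts. ADAM29, a testis gene, had 40.0% and 4 CpG, and ADAMTSL1 had 54.8% and 8. ADAM15 held 6 SP/KLF matches and ADAM19 none. A TEAD match was present in ADAM17 and ADAMTS6, and no AP-1 or TATA match was found in any of the 9 windows.

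Open regions were present around most of the family, and open starts at fewer of its genes. At least 1 summit lay in the gene or within 10 kb of it for 41 of the 45 genes, where 90.9% of all protein-coding autosomal genes had one. The 4 genes without any summit were ADAM2 and ADAM18, which encode sperm surface proteins, ADAM29, and ADAMTS5, a major aggrecan-cleaving enzyme. A start-site summit was present for 17 of the 45 (37.8%), against 66.8% of all protein-coding autosomal genes. For 16 of the 45 the promoter table used here held no start, and a summit within 1000 bp of either gene end was counted in its place. These were ADAMTS1, ADAMTS4, ADAMTS5, ADAMTS8, ADAMTS9, ADAMTS15, ADAMTS16, ADAM2, ADAM7, ADAM9, ADAM11, ADAM18, ADAM28, ADAM32, ADAM33 and ADAMDEC1. Among the 29 with a start in the table, 11 had a start-site summit, against 68.5% of all genes in the table.

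The signal at the open starts ranged widely, from an enrichment of 1.73 to 17.9. Summits by either gene end are included where the promoter table held no start, and such a summit may lie at the far end of the gene. The deposited enrichment is a ratio, the fragment pileup at the summit over the local background that the peak caller used, each plus 1. Over the 17 genes with a start-site summit its median was 6.59, and over all coding genes with one it was 11.9. The pileup, the pooled count over the summit, had a median of 297 in the 17 and 776.5 in all. Its unit is called fragments here, although the sources do not give the unit that the peak caller counted. By family, the median start-site enrichment was 10.9 over 9 ADAM genes, 5.30 over 6 ADAMTS genes and 3.59 over 2 ADAMTSL genes, and the median pileups were 873, 207.5 and 222.5. The ADAM genes thus had the highest median on both scales, and the order of the other families depended on the scale. The difference between families was not tested.

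**Figure D1:**
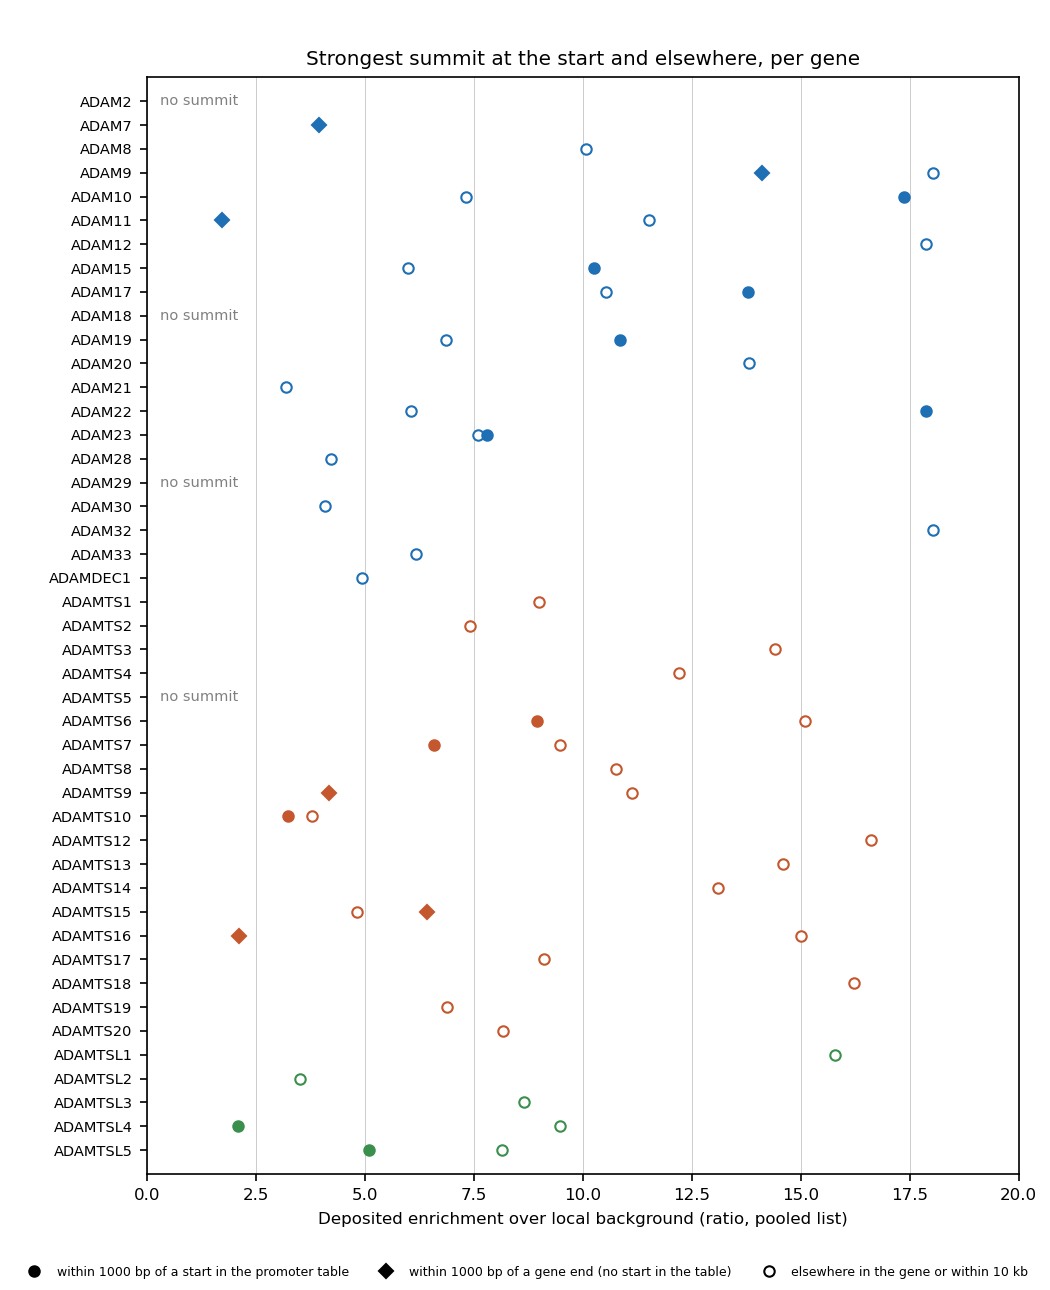
Enrichment (ratio, x axis, from 0) of the strongest summit of each of the 45 genes, in 1 pooled list. Filled circles are summits within 1000 bp of a start in the promoter table, filled diamonds are within 1000 bp of a gene end where the table holds no start, and open circles are the strongest summit elsewhere in the gene or within 10 kb. The filled marks lie right of the open ones for ADAM10, ADAM15, ADAM17, ADAM19, ADAM22, ADAM23 and ADAMTS15, while ADAM12, ADAM32, ADAMTS12 and ADAMTS18 have an open mark alone, above 16.

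Of the 9 catalytic ADAM proteases of somatic tissues, all had a summit in their window and 5 had a start-site summit, with enrichments from 10.3 to 17.4: ADAM10, ADAM17, ADAM9, ADAM19 and ADAM15. ADAM10, the constitutive sheddase that cleaves Notch receptors and cadherins, had an enrichment of 17.4 at a pileup of 2166 over a background of 123.7 fragments, 216 bp upstream of its start, in the interval chr15:58749407-58750248. ADAM17, which releases TNF and several EGF-receptor ligands, had 13.8 at a pileup of 2152 over a background of 155.1, 72 bp upstream, in chr2:9555255-9556406. Elsewhere, the strongest summit of ADAM10 had 7.32 at 155 fragments. That of ADAM17 had 10.5 at 382 fragments, so it came nearer to the value at the start in enrichment than in pileup. Among all coding genes with a start-site summit, ADAM10 stood at percentile 95 of enrichment and ADAM17 at percentile 66.1.

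ADAM9, a widely expressed sheddase, had an enrichment of 14.1 at a pileup of 2986, the highest pileup of the 269 summits. That summit lay 0.266 kb outside the lower end of the gene and inside the neighbouring gene TM2D2, so the open site cannot be given to either gene alone. ADAM19, which sheds neuregulin, had 10.9 at a pileup of 552, 67 bp upstream of its start and 105 bp from the start of LOC124901121. ADAM15, a disintegrin protease of endothelial and other cells, had 10.3 at a pileup of 873, 158 bp upstream and 7 bp from the start of DCST1-AS1, a non-coding gene on the same interval.

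The other 4 catalytic ADAM genes of somatic tissues had no start-site summit. ADAM8, a leukocyte protease, had its nearest summit 1872 bp upstream of the start and inside the neighbour TUBGCP2, at an enrichment of 7.46 and a pileup of 652. ADAM28, a lymphocyte protease, had 1 summit in its window, at 4.22, and ADAM33, known as an asthma-associated gene, had 5, of which the strongest was at 6.18. ADAM12, expressed in mesenchyme and in many tumours, is described with the distant sites below.

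Among the 8 ADAM proteins without a complete catalytic site, 5 had a summit in the window and 4 at a start or gene end. ADAM22 and ADAM23 are receptors for the secreted LGI proteins of the nervous system. ADAM22 had the highest start-site enrichment of the 45 genes, 17.9 at a pileup of 1776 over a background of 98.3, 82 bp upstream in chr7:87933870-87934648, percentile 97 of all coding genes with such a summit. ADAM23 had 7.80 at a pileup of 215, 24 bp upstream of its start. The pileup at ADAM22 was thus far above that at ADAM23. ADAM7, an epididymal gene, had 3.94 at 83 fragments by its upper end. ADAM11 had 3 summits by its lower end, of which the strongest was 1.73 at 63 fragments. Its strongest summit, 11.5 at 1925 fragments, lay inside the gene.

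The ADAM genes of testis and epididymis had few open starts. This list overlaps those above and holds ADAM2, ADAM7, ADAM18, ADAM20, ADAM21, ADAM29, ADAM30 and ADAM32. Of these 8 genes, 5 had a summit in the window and 1, ADAM7, by a gene end. The 3 testis genes with an intact catalytic site, ADAM20, ADAM21 and ADAM30, had no start-site summit. Strong summits in these windows lay away from starts: ADAM20 had a summit of 13.8 in its downstream flank, 19.0 kb from the start in the table, and ADAM32 had one of 18.04 within the gene. The ADAM32 summit, with 621 fragments, also lay within 10 kb of ADAM9 and was the strongest summit in either window. ADAMDEC1, the decysin of macrophages, had 2 summits in its window, the stronger at 4.92.

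Among ADAMTS genes, the fibrillin-associated pair and a few proteoglycan-cleaving enzymes had open starts. ADAMTS6 had the strongest, an enrichment of 8.96 at a pileup of 417 over a background of 45.7, 14 bp upstream of its start in chr5:65481541-65482231. ADAMTS10, its close relative, had 3.23 at 75 fragments, 311 bp from the inner of the 2 starts in the table. At the outer start of ADAMTS10 the nearest summit was 1392 bp away. ADAMTS7, 1 of 2 enzymes that cleave cartilage oligomeric matrix protein, had 6.59 at 245 fragments, 54 bp upstream, and the other, ADAMTS12, had none.

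The 7 hyalectan-cleaving ADAMTS genes, which act on aggrecan and versican, had summits in 6 windows and by 2 gene ends. ADAMTS15 had 6.43 at 170 fragments by its lower end, and ADAMTS9 had 4.18 at 364 fragments by its upper end. ADAMTS9 also had a stronger summit of 10.7, at 869 fragments, 2.02 kb inside that end. ADAMTS1 had 2 summits, both inside the gene, of which the stronger was 9.01 at 307 fragments, and its gene ends had none within 1000 bp. ADAMTS4, ADAMTS8 and ADAMTS20 likewise had summits only elsewhere in their windows, with highest enrichments of 12.2, 10.8 and 8.16.

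None of the 3 procollagen N-proteinases, which trim the amino-terminal propeptide of fibrillar procollagens, had a start-site summit. In 2 of them a summit lay just outside the limit: ADAMTS3 had one of 12.1, at 627 fragments, 1133 bp downstream of its start, and ADAMTS14 one of 4.28, at 109 fragments, 1263 bp downstream. ADAMTS2 had its nearest summit 7744 bp downstream, at 1.97. ADAMTS19 also lay just outside the limit, with 6.89 at 146 fragments, 1287 bp downstream. On the inside of the limit, the genes in the promoter table whose nearest summit lay farthest from the start were ADAMTSL4 (385 bp) and ADAMTS10 (311 bp). With a limit of 2500 bp the number of genes with a start-site summit was 24 of 45 (53.3%), and that of all coding genes was 73.4%.

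ADAMTS13, the plasma protease that cleaves von Willebrand factor, had no start-site summit. Its strongest summit, 14.6 at 1038 fragments, lay 46 bp from the start of the neighbour REXO4, and its next, 10.1, lay 47 bp from the start of CACFD1. Of the 4 other ADAMTS genes, ADAMTS16 had 2.12 at 61 fragments by its lower end, and ADAMTS17, ADAMTS18 and ADAMTS19 had no start-site summit. Of the 5 ADAMTSL genes, ADAMTSL5 had a start-site summit of 5.10 at 297 fragments and ADAMTSL4 of 2.09 at 148 fragments. ADAMTSL1, ADAMTSL2 and ADAMTSL3 had none. The starts in the table lie inside the annotated gene for ADAMTSL1, ADAMTSL2, ADAM20 and ADAMTS13, and a summit at any other start of these genes would not have been counted.

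The sites around these genes were also described by their place. The 45 windows held 269 summits in 244 intervals, with a median interval of 489.5 bp. Of these summits, 20 were at a start, or at a gene end where the promoter table held no start. The other 249 were elsewhere, 195 inside the gene and 54 in the flanks. The median enrichment was 5.76 for the 20 and 3.87 for the 249, and the median pileups were 234.5 and 111. Counted as pairs of a summit and a gene, 20 of 270 (7.41%) were at the gene's own start, against 18.8% over all coding genes, whose windows were shorter. Among the 249, the strongest sites were as high as the best starts. Of the 43 summits with an enrichment of at least 10, 6 lay at a start of these genes and 37 away from it. Of those 37, 35 were also more than 1000 bp from every start of other genes in the promoter table. That table holds a start for 15101 of 19126 coding autosomal genes, and starts missing from it were not checked. As pairs, 6 of 44 summits with an enrichment of at least 10 (13.6%) were at the gene's own start, against 46.9% over all coding genes.

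The strongest site of a gene was away from its start in 33 of the 41 genes with a summit, against 52.7% of coding genes. That share includes genes with no start-site summit at all, for which it holds by construction. A summit with an enrichment of at least 10 was present in the windows of 22 of the 45 genes, against 60.2% of all coding genes. The median of the highest enrichment per window was 10.3 over these genes and 12.4 over coding genes. For the genes in the promoter table, 28 such strong summits lay away from the start, in 11 genes. Their distance to the start ran from 1.13 kb to 374.8 kb with a median of 91.8 kb, and 22 of the 28 were inside the gene.

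ADAM12 had the most summits of the 45 genes, 22, and none of them within 1000 bp of its start. Of these, 8 had an enrichment of at least 10. The strongest was 17.9 at 1106 fragments, 189 kb into the gene, in chr10:126199194-126199799. The next was 17.5 at 1061 fragments, 37.8 kb into the gene, in chr10:126350373-126351066, and another was 15.2 at 780 fragments, 9.77 kb upstream of the start. The summit nearest to the start, 3975 bp downstream, had 11.1 at 301 fragments. The strong sites were thus spread along the whole of this 376 kb gene, and its CpG-rich start, printed above, had no summit in the list.

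ADAMTS6, ADAMTS12 and ADAMTS18 showed the same kind of site in other arrangements. In ADAMTS6, 4 intervals within 18.9 kb, 272 to 291 kb downstream of the start, had enrichments from 5.28 to 15.1, and the strongest had 831 fragments against 417 at the start. In ADAMTS12, the strongest was 16.6 at 752 fragments, 102.9 kb into the gene, and a second strong one of 11.0 lay at 201 kb. In ADAMTS18, 3 strong sites lay between 75.8 and 136 kb from the start, with enrichments of 13.9, 16.2 and 12.8. ADAM10 and ADAM22 differed from these: away from their starts they had no summit above 7.32 and 6.05. Whether any of these sites acts on the gene it lies in was not tested.

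**Figure D2:**
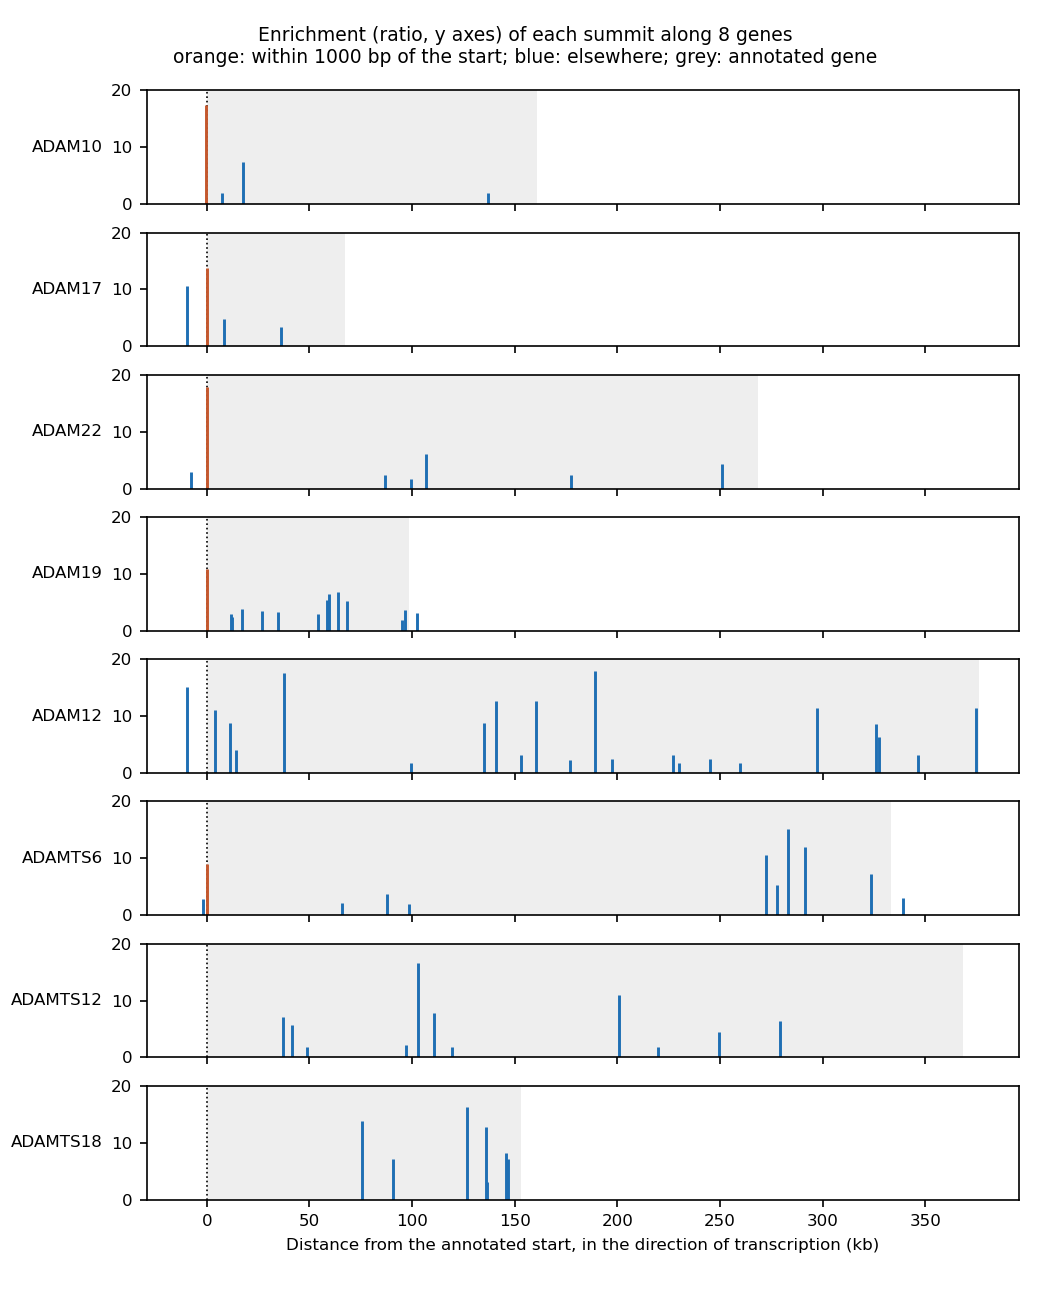
Each vertical line is a summit in the pooled list, placed by its distance from the annotated start in the direction of transcription (kb, x axis) and with its enrichment as height (ratio, y axis, 0 to 20), for 8 genes. The grey band is the annotated gene, orange lines are within 1000 bp of the start and blue lines are elsewhere. ADAM10, ADAM17, ADAM22 and ADAM19 have their tallest line at the start, ADAM12, ADAMTS12 and ADAMTS18 have no orange line, and ADAMTS6 has taller lines 272 to 291 kb away than at its start.

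Longer genes held more summits, in this family as in general. After ADAM12, the genes with the most summits were ADAMTS16 (19), ADAMTSL1 (16), ADAMTS2 (15), ADAM19 (14) and ADAMTS17 (14). Windows ran from 22.98 kb (ADAM30) to 1024 kb (ADAMTSL1), with a median of 88.5 kb against 44.5 kb for coding genes. Across the 45 genes, Spearman's rho between window length and the number of summits was 0.45, and across all coding genes it was 0.46. These are descriptions across genes of 1 pooled list, in which neighbouring genes share summits. The median was 4 summits per gene in the family and 3 in coding genes, but 4.58 and 6.12 per 100 kb of window.

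The genes with many summits differed in how high these were. In ADAMTS2, a procollagen N-proteinase, the 15 summits had enrichments of 1.64 to 7.41. In ADAMTS16, 2 of 19 summits reached 10, at 15.0 with 1266 fragments and 12.4 with 1106 fragments, and both lay inside the gene. ADAM19, whose start was open, had 5 intervals within 14.1 kb, 54.1 to 68.2 kb downstream of the start, at enrichments from 3.03 to 6.87. ADAMTSL1 had 4 summits of at least 10 around its table start at distances from 14.1 to 235.7 kb, the strongest at 15.8 with 620 fragments. ADAMTS17 had its highest at 9.12.

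Per length, the densest windows belonged to short genes. ADAMTSL4, a fibrillin-binding protein gene linked to lens dislocation, had 25.4 summits per 100 kb, ADAM33 had 14.7, ADAMTS4 had 14.4 and ADAMTSL5 had 14.3. In ADAMTSL4, 5 of the 8 summits lay in the downstream flank, inside ADAMTSL4-AS1, where the local background was 294 to 339.7 fragments, against a genome-wide background of 20.3. The strongest of those 5 had 2796 fragments but an enrichment of 9.48, because the ratio divides by that background. Apart from the 4 genes with no summit, the lowest densities were in long genes, where ADAMTS20 had 1 summit and ADAMTS19 had 2 in windows of 219 and 298 kb.

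**Figure D3:**
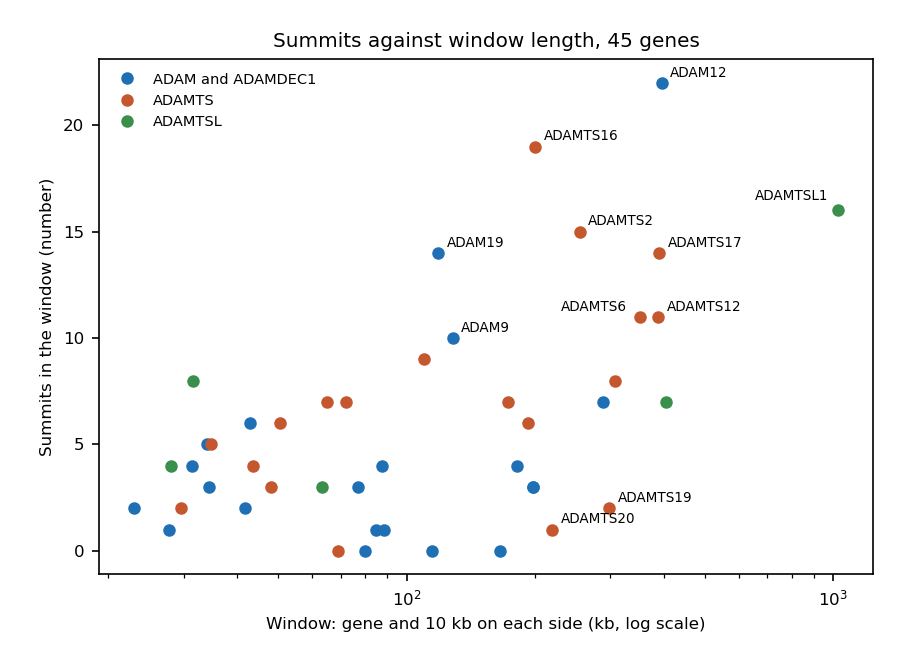
Number of summits (y axis) against the length of the gene with 10 kb on each side (kb, log scale, x axis) for the 45 genes, coloured by family. Each point is 1 gene. ADAM12 with 22 summits and ADAMTS16 with 19 stand highest, and 4 genes lie at 0.

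CpG-rich promoters, which are open in most cell types, were common in this family, and many of them had no summit. The 30 promoters of 300 bases (250 before the start and 50 after) of the 29 genes in the table had a median of 29 CpG, and the 21156 promoters of all coding autosomal genes had 21. Of the 24 with at least 10 CpG, 10 had a start-site summit, against 80.6% of such promoters in general. Of the 6 with fewer, 1 had one, against 23%. Within the family, the median CpG number differed little between promoters with and without a start-site summit, at 32 and 27. At least 10 CpG were present in 10 of the 11 promoters with such a summit and in 14 of the 19 without. Over all coding genes the medians were 27 and 6, and the shares with at least 10 CpG were 89.1% and 37.1%. CpG-rich promoters without a start-site summit included ADAMTSL3 with 48 CpG, ADAMTS2 with 47, ADAMTS14 with 42 and ADAMTS3 with 35. ADAMTS14 and ADAMTS3 had a summit just outside the limit of 1000 bp. The share of CpG-rich family promoters with a start-site summit was 41.7% at a minimum of 10 CpG, 40.7% at 5 and 40.9% at 20.

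**Figure D4:**
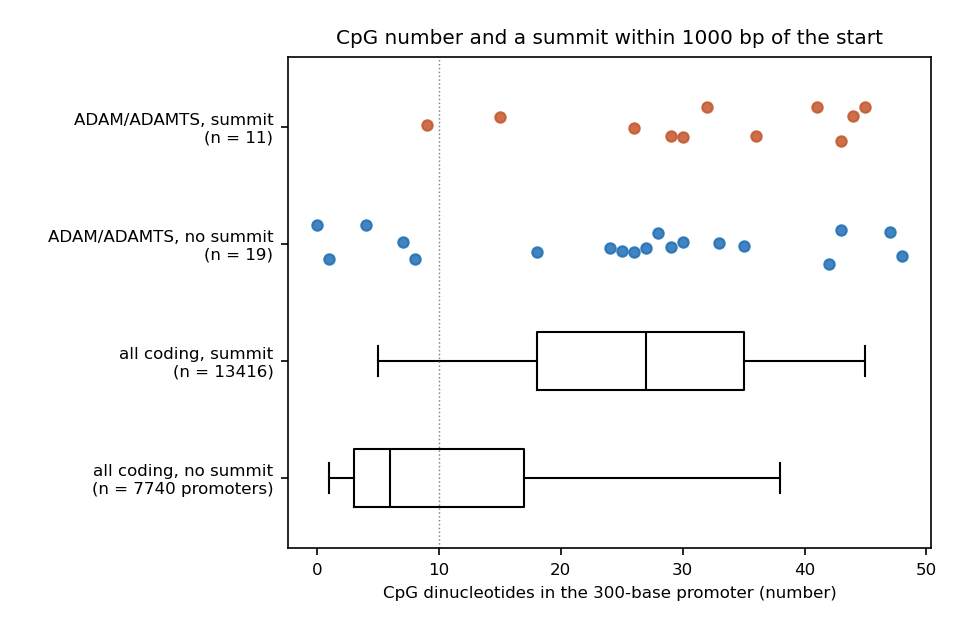
CpG dinucleotides in the 300-base promoter (x axis) by whether a summit lies within 1000 bp of the start. Points are the promoters of ADAM, ADAMTS and ADAMTSL genes (spread vertically for legibility), boxes are the quartiles and median of the promoters of all coding autosomal genes, family included, with whiskers at the 5th and 95th percentiles. The family's promoters without such a summit reach as many CpG as those with one, with medians of 27 and 32, and the dotted line marks 10 CpG.

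The motifs spelled out beside the printed promoters were counted in all promoters of the table. GGGCGG on either strand was present in 22 of 30 promoters (73.3%), against 56.6% of all promoters of the same length. GGAATG was present in 5 (16.7%), against 12.2%, and TATAAA in 3 (10.0%), against 9.51%. TGANTCA was present in 1 (3.33%), that of ADAMTS12, against 6.08%. Within the family the GC box was present in 72.7% of promoters with a start-site summit and in 73.7% of those without, while over all coding genes these shares were 70.5% and 32.5%. A match describes the letters in the window and not a bound site.

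The inhibitors and partners of these proteases were counted in the same way, beside the 66.8% of all coding genes with a start-site summit. Among the endogenous inhibitors, TIMP1, TIMP2, TIMP3 and RECK had a start-site summit and TIMP4 had none, with enrichments from 13.2 (TIMP1) to 3.99 (TIMP3, the main ADAMTS inhibitor). Among 9 partners of ADAM10 and ADAM17 (TspanC8 tetraspanins, iRhoms and FRMD8), which carry the sheddases to the surface, 8 had one, from 16.6 (TSPAN17) to 2.4 (FRMD8), and TSPAN15 had none. Among 4 convertases that remove the inhibitory propeptide, 3 had one, from 12.6 (PCSK5) to 2.27 (FURIN), and PCSK6 had none.

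The substrates were counted likewise. Of 7 ligands of the EGF family that are shed, NRG1 among them, 2 had a start-site summit, TGFA at 15.8 and HBEGF at 11.0. Of 7 Notch receptors and ligands, 3 had one, from 15.6 (NOTCH2) to 9.69 (JAG1). Of 11 matrix substrates of ADAMTS enzymes, 2 had one, FBN1 at 10.2 and FBN2 at 7.36. The procollagen genes COL1A1, COL1A2 and COL3A1, substrates of the N-proteinases without a start-site summit, were among the 9 without. All these lists are small, and no list was tested against other genes.

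Markers of the labelled cell type were checked in the same way. All 7 mesenchymal and fibrosarcoma markers had a start-site summit, from 15.1 (FN1) to 2.72 (PLAUR). Of 8 markers of other lineages, 2 had one, CD3E at 14.5 and EPCAM at 2.11, both by a gene end, and ALB and NEUROD1 had no summit in their windows. The part of other cells in any value of the protease genes was not tested.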

How the data were processed

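ATAC-seq libraries of HT1080 cells (12, in 3 groups of 4) were pooled by the authors into 1 deposited peak list, with 0 columns of other samples. Per the submitters' processing notes, which give no roles or order, the tools were fastp 0.20.0, Bowtie2 2.4.3, deepTools 3.5.0, SAMtools and MACS2 2.2.7.1, and the build was hg38. The deposited columns hold a score, an enrichment ratio, and p and q values as −log10, with a lowest −log10 q of 1.3 in the authors' deposited table. How the peak caller was run is not given in the sources used here.

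The fragment pileup and background were solved here from each enrichment, taken as (pileup + 1)/(background + 1), and its −log10 p, taken as a Poisson upper tail. No label states this model, or the unit that the pileup counts, called fragments here. The model gave a whole pileup, within 0.05, in 99.957% of lines, and was tested on simulated data. The lowest background, 20.3 fragments, recurred in 53.03% of lines. Depth per library is unknown, so no counting interval is given.

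Summits were counted in genes, within 10 kb of them and within 1000 bp of a start (RefSeq promoter table, GRCh38.p14, or either gene end where it holds no start). Values are named for the 12 genes with the highest start-site enrichment, the 6 with the most summits, the 4 with the most per 100 kb, genes without a start-site summit, those near the 1000 bp limit, and the highest and lowest of each partner list. Others were named after their values were seen. Members and lists were chosen with earlier results of these data known. Alternatives changed the window, start distance, q limit, summit rule, start source and scale. Python 3.11.15, pandas 2.3.3, numpy 2.4.6, scipy 1.17.1 and matplotlib 3.10.9 were used.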

Additional observations from a re-analysis of the deposited data

How the results depend on the processing

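Of 27 alternatives to the 6 summary values, 25 stayed within 1.5 times the count, or within the interval of the median or share. The exceptions were the scale and the restriction to genes with a start in the promoter table (chosen after seeing the data). The scale was set as an exception beforehand, since a median pileup of 297 fragments and a median enrichment of 6.59 have different units. The restriction left 11 of 29 genes with a start-site summit, because 16 genes were not counted. The limit of 1.5 times is wide, and 12 genes at 250 bp and 24 at 2500 bp both passed it beside 17. The number with a start-site summit was 12 at 250 bp, 17 at 500 bp and 24 at 2500 bp, and over all coding genes the shares were 56.2%, 62.2% and 73.4%, each above the family's 26.7%, 37.8% and 53.3%. It was 15 with a −log10 q of at least 10, 20 by overlap of the interval and 19 by either gene end. With that q limit, 188 of the 269 summits remained. The CpG limits of 5 and 20 were also chosen after seeing the data. The plan made beforehand named the CpG count of promoters, but neither the share of CpG-rich promoters with a summit nor its limit of 10 CpG. No paired analysis was possible because the list carries no column per library, and leaving out each library in turn was not possible for the same reason. Pooled depth sets which weak sites pass: the lowest pileup in the windows was 35 fragments, and 30.9% of the family's summits stood on the genome-wide background.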
